A study of Mus musculus with 36 samples.

Results

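The 9 libraries described here are those of inguinal fat from male mice, 4 from animals given CP2 and 5 from animals given vehicle, out of 36 libraries in the whole series. They were chosen by their labels: tissue fat, sex male, and the treatment each library carries, so no measured value was used. The other 27 are brain libraries of both sexes and 7 libraries of female inguinal fat, and the female fat enters one comparison below. All animals were wild-type C57BL/6 mice, without a disease allele. The treated males drank water carrying CP2, which the labels describe as a mitochondrial complex I inhibitor, at a daily dose of 25 mg/kg from 21 months of age, with 0.1% PEG in the water. Vehicle males drank 0.1% PEG alone, and the animals were 26 months old when their RNA was profiled. The comparison asks how the subcutaneous fat of old male mice on this long-term treatment differs in its transcripts from that of untreated males of the same age. Since the labels do not tie each library to its own animal, p-values here reflect only how these libraries vary, which may include technical variation.

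Inguinal fat is a subcutaneous white depot. Its adipocytes store triglyceride, release fatty acids by lipolysis, secrete hormones such as leptin and adiponectin, and can build fatty acids from glucose: citrate made in the mitochondrion is exported, split to acetyl-CoA, and lengthened to fatty acids with NADPH from malic enzyme and the pentose phosphate pathway. Pyruvate enters the mitochondrion through a carrier and is oxidised by the pyruvate dehydrogenase complex. Complex I, the entry point of NADH electrons into the respiratory chain, hands them on through complexes III and IV, and ATP synthase uses the resulting proton gradient. In bulk tissue, fewer cells of a type and less RNA per cell cannot be told apart, which applies to every lower value below.

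The males carried 35978524 to 56427108 gene-assigned reads per library. Y-linked Ddx3y lay between 105 and 179 CPM (a gene's count relative to the size of its library, scaled by the trimmed mean of M values) in the 9 libraries, and Xist between 0.0828 and 6.66 against a mean of 1414 CPM in female vehicle fat. Markers of mature adipocytes were abundant in all 9, with a mean log2 CPM over 20 genes of 8.68 to 10.70, and CP2 library s530 was the lowest. The 37 genes of the mitochondrial genome had no counts in any library, so the subunits it encodes are not part of what follows. Several libraries carried transcripts of other tissues. Vehicle library s540 held transcripts of the central nervous system: 9 of 9 oligodendrocyte and 9 of 11 neuron and astrocyte markers were above all the other male fat libraries, at a median of 19.8% and 12.9% of the level in brain. These nervous system lists were chosen after their values were seen. Vehicle s551 and CP2 s530 held the most lymphocyte and lymph node transcripts, with T and NK cell scores (mean log2 CPM of the markers) of 5.51 and 5.74 against 0.58 to 3.16 elsewhere. CP2 s571 and vehicle s621 had the highest skeletal muscle scores, 3.99 and 3.07, with the others between -1.11 and 2.17. Mammary epithelium markers were low in all 9, with scores from -2.96 to -1.24. Leaving out s571 moved the log2 change of 47 of the 138 named genes by over 1.5 times or turned its sign, and leaving out any other male library did so for 8 to 16.

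**Figure D1:**
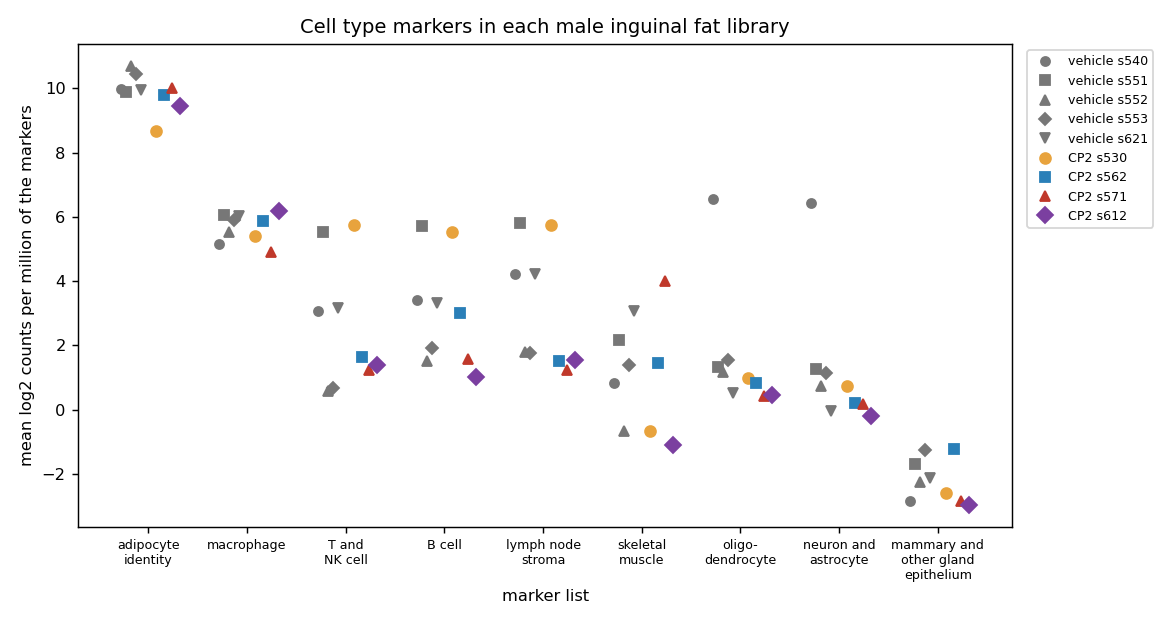
Mean log2 CPM (y axis) of the marker genes of 9 cell types (x axis) in each male inguinal fat library, with vehicle in grey and CP2 in colour. Vehicle s540 stands alone on both nervous system lists at 6.55 and 6.43, vehicle s551 and CP2 s530 on the lymphocyte lists, and CP2 s571 has the highest muscle score.

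Of 19769 genes tested, 2 passed the adjusted threshold of 0.05 in males by edgeR's quasi-likelihood test, both higher with CP2 (0.0101% of genes tested), and 0 were lower (0%). The median log2 change of all genes tested was 0.04. The 2 genes were Msrb1, which encodes a selenoprotein that repairs oxidised methionine in proteins, and Pdk1, a kinase that phosphorylates and shuts down pyruvate dehydrogenase. Values per library are given throughout in the order s540, s551, s552, s553, s621 for vehicle and s530, s562, s571, s612 for CP2. Msrb1 (ENSMUSG00000075705, mm10 chr17:24736642-24742778, protein coding) measured 80.6, 68.8, 70.8, 73.2 and 88.1 CPM in the vehicle libraries and 115, 156, 151 and 148 CPM in the CP2 libraries. Every CP2 library lay above every vehicle library, s530 being the lowest of the treated. Its means were 76.3 ± 7.95 CPM with vehicle (SD, n = 5) and 143 ± 18.7 CPM with CP2 (SD, n = 4), and it rose by 0.90 ± 0.12 (SE) on the log2 scale, with an adjusted p of 0.0420 by edgeR. Pdk1 (ENSMUSG00000006494, mm10 chr2:71873224-71903858, protein coding) measured 72.7, 90.2, 56.7, 69.3 and 88.1 CPM with vehicle and 144, 132, 133 and 150.3 CPM with CP2, again without overlap and within a narrow range among the treated. It rose by 0.89 ± 0.12 on the log2 scale (edgeR adjusted p = 0.0458). The labels carry an L number of 2, 3 or 4 whose meaning they do not state. Within the libraries of one L number, the log2 differences were 1.10, 0.63 and 1.11 for Msrb1 and 0.92, 0.88 and 0.89 for Pdk1.

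Neither call held under every choice of libraries or tool. With any 1 of the 16 fat libraries left out, except vehicle s621, CP2 s530 and the female vehicle library s442, no gene passed. Leaving out s621 gave 2 genes and leaving out s442 gave 1. Without vehicle library s540, the smallest edgeR adjusted p was 0.0625, with 1513 genes higher (7.69%) and 906 lower (4.6%) at an unadjusted p under 0.05. Without CP2 library s530, 213 genes passed higher (1.08%) and 12 lower (0.061%), Msrb1 and Pdk1 among the higher. DESeq2 called 277 genes higher (1.5%) and 204 lower (1.11%), and limma-voom called 0. At an unadjusted p under 0.05, edgeR gave 1514 genes higher (7.66%) and 1323 lower (6.69%), 2837 in all. Every CP2 library lay above every vehicle library in 344 genes (1.74%) and below in 254 genes (1.28%). Without s540 these shares were 3.34% and 2.4%, and 54.3% of genes had a log2 change above 0. Groups with fewer libraries separate more easily, whichever library is left out. The shares of all genes with all libraries are the background for the counts of list members below. Apart from Msrb1 and Pdk1, the genes below are described by their values and groups: none of them passed the adjusted threshold by edgeR in the comparison as designed. With T cell and muscle scores as covariates edgeR called 9 genes, among them Cnst, Ndufa6, Gucd1 and Nnat, with adjusted p of 0.0439, 0.0191, 0.0373 and 0.00537.

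**Figure D2:**
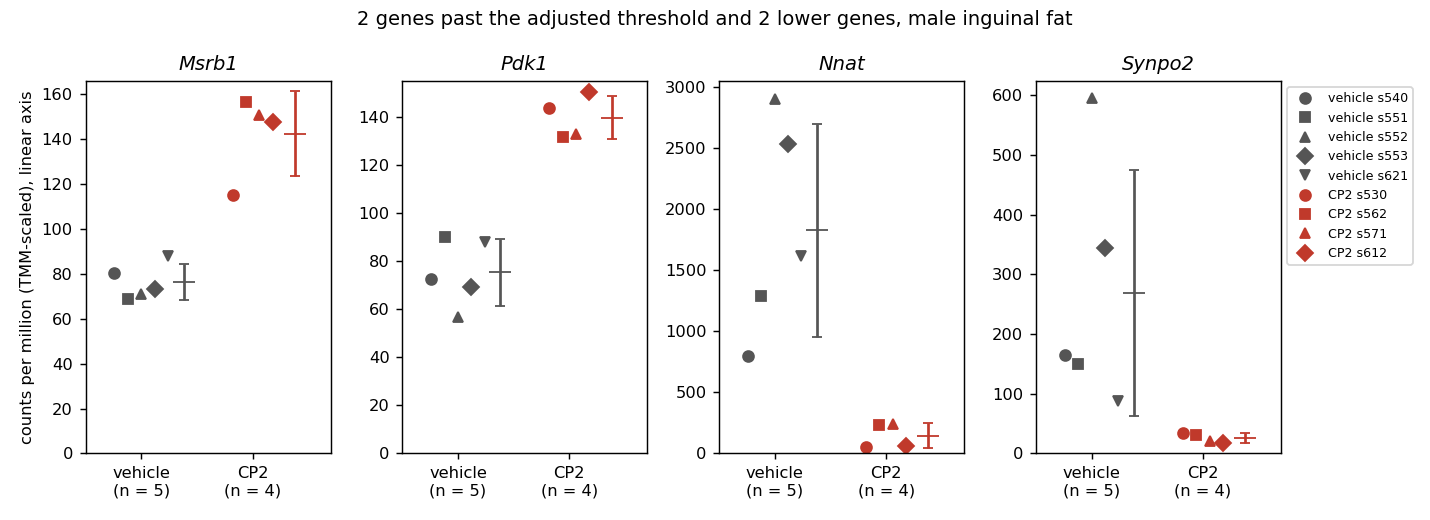
CPM (y axes, linear, each panel with its own scale) of Msrb1, Pdk1, Nnat and Synpo2 in each male library (x axis, treatment), with the mean ± SD of each group beside its points. The groups do not overlap in any of the 4 genes. For Nnat and Synpo2 the vehicle libraries, which are higher, span more CPM than the CP2 libraries on these linear axes. Relative to its level, the vehicle group did not spread more for Nnat.

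After these 2, the higher genes with the smallest p were Cnst, Mrpl30, Ndufa6, Coasy, Elovl6, Tgds, Metap1, Gm2a, Gucd1 and Slc25a1, with edgeR adjusted p from 0.0975 to 0.131. Cnst, a protein of connexin trafficking, was 58.2 to 75.7 CPM with vehicle and 109.7 to 136 CPM with CP2 (0.87 ± 0.14 log2). Among the others, Mrpl30 belongs to the mitochondrial ribosome (0.58 ± 0.10), Ndufa6 to complex I (0.59 ± 0.10), and Slc25a1 exports citrate from the mitochondrion. Coasy, which completes the synthesis of coenzyme A, was 36.9 to 65.01 CPM with vehicle and 65.1 to 152 CPM with CP2 (1.16 ± 0.20 log2). Gm2a, a lysosomal activator protein of ganglioside breakdown, differed by 1.02 ± 0.19, and Metap1, which removes the first methionine of new proteins, by 0.54 ± 0.10. Tgds differed by 0.49 ± 0.09 and Gucd1 by 0.96 ± 0.18. In all of these except Slc25a1, every CP2 library exceeded every vehicle library.

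Genes that build fatty acids had the highest median change of the lists described. All 17 tested genes of the fatty acid synthesis list were higher with CP2, beside 54.9% of all genes. Of the 17, 13 had an unadjusted p under 0.05, beside 7.66% of all genes, and 4 were free of overlap, beside 1.74%. Elovl3, which was low in all libraries and is described with the thermogenic genes below, was 1 of these 4. The median log2 change of the list was 2.26. DESeq2 called 12 of the 17 higher, beside 1.5% of all genes it tested. By edgeR, 0 passed with all libraries. Without s530, the CP2 library nearest to vehicle on this list, 8 passed, beside 1.08% of all genes. The 4 CP2 libraries were far from uniform. Relative to the vehicle mean, the list median was 0.30 in s530, 0.81 in s562, 3.68 in s571 and 2.48 in s612, while vehicle libraries ranged from -0.26 to 0.47. Without s571, the library with the highest muscle score, the median change of the list was 1.47, and with T cell and muscle scores as covariates it was 1.82. Within L numbers 2, 3 and 4 it was 0.95, 1.16 and 4.0, the last with s571 as its only CP2 library.

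Slc25a1, the citrate carrier of the inner mitochondrial membrane, measured 154, 129, 92.6, 134 and 215 CPM with vehicle and 209, 334, 1869 and 922 CPM with CP2. Treated library s530 was below vehicle s621, and the others were above all vehicle libraries (2.53 ± 0.48 log2, edgeR adjusted p = 0.131). Acly, which splits exported citrate to acetyl-CoA, was 151, 177, 181, 185 and 351 CPM with vehicle and 193, 298, 9347 and 2622 CPM with CP2. Here s571 and s612 stood far above the vehicle range while s530 and s562 lay inside it (3.90 ± 0.87 log2, adjusted p = 0.131). Acetyl-CoA carboxylase is encoded by Acaca and Acacb, the latter at the mitochondrial surface where its product restrains fatty acid oxidation. Acaca had 309 to 668 CPM with vehicle and 476, 1024, 5356 and 2361 CPM in the CP2 libraries. Acacb was 268, 299, 265, 355 and 457 CPM with vehicle and 736, 1002, 540.4 and 1035 CPM with CP2, and differed from the others in that s571 was the lowest of the treated and the groups did not overlap (1.33 ± 0.33 log2, edgeR adjusted p = 0.159).

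Fasn, the fatty acid synthase itself, was 589, 521, 295, 687 and 2271 CPM with vehicle and 1642, 4822, 32208 and 12909 CPM with CP2. Vehicle s621 overlapped CP2 s530, and s571 was the highest of all 9 (3.89 ± 0.79 log2, adjusted p = 0.131). Elovl6, which elongates palmitate, was 34.5, 28.6, 14.3, 20.03 and 34.7 CPM with vehicle and 70.8, 92.8, 1851 and 464 CPM with CP2. Its groups did not overlap, and it had the smallest p of the list (4.55 ± 0.82 log2, edgeR adjusted p = 0.116). Me1, the cytosolic malic enzyme that supplies NADPH, was 315, 175, 291, 248 and 292 CPM with vehicle and 319, 716, 4928 and 1513 CPM with CP2 (2.82 ± 0.58 log2), with s530 only just above the highest vehicle library. Scd1, the desaturase that makes oleate, overlapped between the groups, with 4737 to 27856 CPM in vehicle and 11820.4 to 55631 CPM in CP2 libraries (0.37 ± 0.68 log2, edgeR adjusted p = 0.890). Srebf1 and Mlxipl, transcription factors of this programme, had overlapping groups: Srebf1 differed by 0.79 ± 0.46 and Mlxipl by 0.56 ± 0.46. Without s571 the change was -0.44 for Scd1, 0.02 for Srebf1, 0.23 for Mlxipl, 2.96 for Elovl6, 1.66 for Me1, 2.29 for Acly and 1.52 for Acaca. Within L numbers 2, 3 and 4 Srebf1 differed by -0.31, -0.21 and 2.17.

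**Figure D3:**
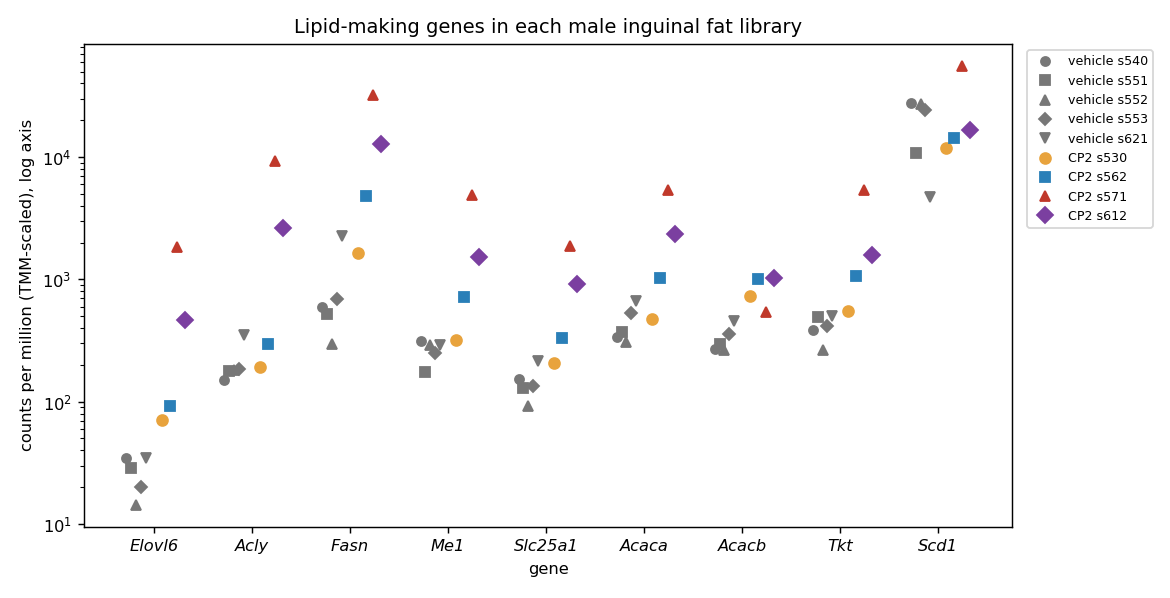
CPM on a log axis (y) of 9 genes of fatty acid and NADPH synthesis (x axis) in each male library, vehicle in grey and CP2 in colour. In every gene shown except Acacb, s571 is the highest of the 9 libraries.

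The enzymes of the pentose phosphate pathway, a list chosen after its values were seen, were all higher with CP2, 7 of 7 with a median of 0.73, and 5 had an unadjusted p under 0.05. Tkt, transketolase, was 382, 489, 265, 418 and 500.5 CPM with vehicle and 549, 1066, 5389 and 1583 CPM with CP2 (2.39 ± 0.50 log2), and Pgls, the lactonase of the oxidative branch, 20.6 to 37.5 CPM with vehicle and 44.3 to 48.4 CPM with CP2 (0.73 ± 0.16 log2), both without overlap. Taldo1 differed by 1.04 ± 0.30 and Pgd by 1.66 ± 0.52. Without s571 the changes were 1.35 for Tkt, 0.57 for Taldo1 and 0.64 for Pgd. Markers of the sebaceous and preputial glands, which make lipid of their own, were higher in the CP2 libraries than in 4 of the 5 vehicle libraries: their score was 2.09 to 2.26 with CP2, 1.27 to 1.51 in those vehicles and 2.99 in s540. Of 9 markers 6 were higher, 2 with an unadjusted p under 0.05 and 1 lower at that limit, with a median of 0.57 that was 0.73 without s540 and 0.14 without s571. The 2 were Mc5r, a melanocortin receptor of those glands, at 3.14, 2.06, 2.42, 1.703 and 3.16 CPM with vehicle and 4.05, 9.80, 3.89 and 12.1 CPM with CP2 without overlap (1.58 ± 0.52 log2, edgeR adjusted p = 0.208), and Cidea, which adipocytes also express. The lower one, Far2, was 8.35 CPM in s540 and at most 1.29 CPM in the other 8 libraries. Awat2, a wax synthase of the glands, was at 0.300 to 0.496 CPM with vehicle and 0.327 to 0.590 CPM with CP2. The part of such glands in the lipid results was not tested.

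Of 17 genes of triglyceride synthesis and the lipid droplet, 14 were higher and 8 had an unadjusted p under 0.05 in that direction, with a median of 0.73 that was 0.27 without s571. Agpat2, an acyltransferase of triglyceride synthesis, was higher by 1.93 ± 0.50, Gpam, which catalyses its first step, by 1.08 ± 0.28, Bscl2 (seipin, of droplet assembly) by 0.78 ± 0.25, and Dgat1, which catalyses its last, by 0.73 ± 0.24. Without s571 Agpat2 differed by 1.0. Only Gpam of these 4 was free of overlap, at 144 to 273 CPM with vehicle and 284 to 650.2 CPM with CP2. Plin4, a droplet coat protein, was lower without overlap, with 3144 to 7129.9 CPM in vehicle and 1119 to 2977 CPM in CP2 libraries (-1.07 ± 0.43 log2, edgeR adjusted p = 0.277). Cholesterol synthesis had 19 of 20 genes higher and 13 with an unadjusted p under 0.05, but s571 stood apart: the median relative to vehicle was 2.26 in s571, 0.55 in s612, -0.16 in s530 and -0.04 in s562. Its median of 0.99 became 0.08 without s571. Nsdhl (1.69 ± 0.46), Pmvk (1.64 ± 0.45), Lss (1.20 ± 0.37) and Insig1, the sterol-regulated brake on the pathway (1.49 ± 0.47), had the smallest p. Without s571 these were 0.66, 0.57, 0.40 and 0.75.

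Promoter windows of genes in these lists were read from RefSeq's mouse sequence (mm10), 250 bases before to 50 after each start, and 6 short elements were searched on both strands, where a base may count for several elements. The elements were the cyclic AMP element TGACGTCA, the CArG box, the E-box CACGTG, the sterol element TCACNCCAC, the ERR element TCAAGGTCA and the NRF1 element (GCGCA joined to its reverse complement). Among the 13 fatty acid synthesis genes with a window, 3 held the E-box (23.1%) against 8.09% of all 27025 genes, 1 the sterol element (7.69% against 1.44%) and 1 the cyclic AMP element (7.69% against 2.03%). Of 14 cholesterol genes, 4 held the E-box (28.6%) and 1 the sterol element (7.14%). Of 64 nuclear genes for subunits of the respiratory chain and ATP synthase, 5 held the NRF1 element (7.81% against 1.07%), 2 the ERR element (3.13% against 0.466%), 6 the E-box (9.38%) and 4 the cyclic AMP element (6.25%). Of 20 immediate early genes, 3 held the cyclic AMP element (15% against 2.03%), 2 the CArG box (10% against 1.81%) and 5 the E-box (25%). These shares describe letters in a window and were not tested. Elovl6, Fasn, Msrb1 and Pdk1 had none of the 6 in their windows. The 250 bases before the start are shown for 1 gene of each group, the one with the smallest p in the male comparison among those with the E-box (both lipid lists), the NRF1 element (respiratory chain) or the cyclic AMP element (immediate early genes), with the element in capitals: the E-box in Slc25a1 (chr16:17928220-17928469, minus strand) and Insig1 (chr5:28071162-28071411, plus strand), the NRF1 element in Atp5k (chr5:108434400-108434649, minus strand), and the cyclic AMP element and E-box in Dusp1 (chr17:26508473-26508722, minus strand).
Slc25a1: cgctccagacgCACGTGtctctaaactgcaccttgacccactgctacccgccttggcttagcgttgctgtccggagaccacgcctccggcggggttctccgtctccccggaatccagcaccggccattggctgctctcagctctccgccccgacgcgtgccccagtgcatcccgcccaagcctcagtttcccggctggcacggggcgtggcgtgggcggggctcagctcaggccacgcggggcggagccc
Insig1: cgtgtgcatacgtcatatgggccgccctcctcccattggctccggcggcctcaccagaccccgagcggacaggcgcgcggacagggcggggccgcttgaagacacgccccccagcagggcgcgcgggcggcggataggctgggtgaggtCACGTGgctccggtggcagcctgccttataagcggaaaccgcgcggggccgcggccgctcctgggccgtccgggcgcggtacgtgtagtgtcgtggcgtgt
Atp5k: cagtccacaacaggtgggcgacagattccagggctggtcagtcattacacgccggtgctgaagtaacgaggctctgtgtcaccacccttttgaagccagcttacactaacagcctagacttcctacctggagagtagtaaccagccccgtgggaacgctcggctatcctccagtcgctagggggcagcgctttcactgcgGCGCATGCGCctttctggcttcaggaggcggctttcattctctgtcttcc
Dusp1: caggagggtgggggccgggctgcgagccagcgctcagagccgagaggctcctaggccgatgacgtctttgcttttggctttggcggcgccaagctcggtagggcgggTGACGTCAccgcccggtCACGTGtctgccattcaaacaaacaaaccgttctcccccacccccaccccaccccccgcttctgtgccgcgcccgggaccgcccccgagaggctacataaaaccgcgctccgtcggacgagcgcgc

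Nuclear genes for the respiratory chain were higher by smaller margins that lay closer together. All 36 tested complex I subunits, the complex that CP2 is labelled to inhibit, were higher with CP2, and 34 had an unadjusted p under 0.05. Their log2 changes lay between 0.32 and 0.78, with a median of 0.59. DESeq2 called 8 of the 36 higher, beside 1.5% of all genes it tested. By edgeR, 0 passed with all libraries and 6 without s530, beside 1.08% of all genes. Only Ndufa6 had groups that did not overlap, and 1.74% of all genes had every CP2 library above every vehicle library. Ndufa6, an accessory subunit, was 71.2, 69.7, 60.7, 62.4 and 73.8 CPM with vehicle and 96.7, 92.4, 113 and 105 CPM with CP2 (0.59 ± 0.10 log2, edgeR adjusted p = 0.116). The core subunits Ndufs1 and Ndufv1, which carry electrons from NADH, differed by 0.75 ± 0.24 and 0.59 ± 0.17, and the accessory subunits Ndufb11, Ndufb5 and Ndufa1 by 0.54 ± 0.13, 0.74 ± 0.18 and 0.64 ± 0.16. Per library, the median relative to vehicle was 0.06 in s530, 0.35 in s562, 1.11 in s571 and 0.69 in s612, against -0.23 to 0.22 among vehicle libraries. Library s530 thus lay inside the vehicle range, and without s571 the median change was 0.36. With T cell and muscle scores as covariates it was 0.58. Within L numbers 2, 3 and 4 it was 0.43, 0.19 and 1.27, the last with s571 as its only CP2 library. Of 13 complex I assembly factors, all were higher, 4 with an unadjusted p under 0.05, with a median of 0.29 that was 0.10 without s571. Ndufaf4 had the smallest p of them (0.67 ± 0.15).

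The other complexes showed the same direction. All 4 subunits of complex II, succinate dehydrogenase, were higher with an unadjusted p under 0.05: Sdhd by 0.69 ± 0.17, Sdhb by 0.63 ± 0.20, Sdhc by 0.62 ± 0.21 and Sdha by 0.54 ± 0.21. Their median of 0.62 was 0.45 without s571. In complex III all 9 were higher with an unadjusted p under 0.05, with a median of 0.77 that was 0.52 without s571. DESeq2 called 6 of the 9 higher, beside 1.5% of all genes it tested. Uqcr10, a small subunit of this complex, was 72.6, 69.8, 49.2, 59.4 and 75.9 CPM with vehicle and 79.2, 109, 174 and 138 CPM with CP2, without overlap (0.94 ± 0.21 log2). Uqcrh was free of overlap too (0.70 ± 0.17), while Uqcrq (1.20 ± 0.30) and the iron-sulfur protein Uqcrfs1 (0.77 ± 0.20) were not. In complex IV, 12 of 12 were higher and 11 had an unadjusted p under 0.05, with a median of 0.67 that was 0.37 without s571. Within L numbers 2, 3 and 4 that median was 0.52, 0.14 and 1.53. Cox7b (0.84 ± 0.24), Cox5a (0.88 ± 0.27), Cox7c (0.69 ± 0.21) and Cox5b (0.72 ± 0.23) had the smallest p. Cox7a1, the isoform of muscle and brown fat, was 0.393 to 2.26 CPM with vehicle and 0.564 to 11.1 CPM with CP2, highest in s571. Of 15 ATP synthase subunits, all were higher and 14 had an unadjusted p under 0.05, with a median of 0.58 that was 0.40 without s571. Atp5c1 differed by 0.56 ± 0.16, Atp5l by 0.69 ± 0.20, Atp5f1 by 0.61 ± 0.18 and Atp5k by 0.87 ± 0.25. The mitochondrial ribosome had 20 of 20 higher and 10 with an unadjusted p under 0.05, at a median of 0.37 that was 0.12 without s571. Mrps35 had the smallest p (0.39 ± 0.09). Without s571 the change was 0.38 for Sdhc, 0.73 for Uqcrq, 0.58 for Cox5a, 0.35 for Cox7c, 0.45 for Cox5b, -0.30 for Cox7a1, 0.44 for Atp5l, 0.40 for Atp5f1 and 0.50 for Atp5k.

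All 19 genes of pyruvate entry and the TCA cycle were higher, 17 with an unadjusted p under 0.05. Their median of 0.68 was 0.47 without s571. Within L numbers 2, 3 and 4 the median was 0.58, 0.19 and 1.32, the last with s571 as its only CP2 library. DESeq2 called 6 of the 19 higher, beside 1.5% of all genes it tested. By edgeR, 0 passed with all libraries and 7 without s530, beside 1.08% of all genes. Pdha1, the catalytic subunit of pyruvate dehydrogenase and the target of the kinase Pdk1, was 441, 328, 389.6, 411 and 473 CPM with vehicle and 475, 694, 1532 and 1053 CPM with CP2, without overlap although s530 was close to vehicle s621 (1.20 ± 0.27 log2, edgeR adjusted p = 0.142). Pcx, pyruvate carboxylase, differed by 1.71 ± 0.37, and Dlat and Pdhb, the other subunits of pyruvate dehydrogenase named here, by 1.20 ± 0.27 and 1.38 ± 0.35. Upstream, 14 of 18 glycolysis genes were higher, 11 with an unadjusted p under 0.05 and 2 lower at that limit, with a median of 0.57 that was 0.22 without s571. Ldha (1.23 ± 0.34), Eno1 (1.18 ± 0.33), Pkm (1.19 ± 0.37) and Gapdh (1.14 ± 0.37) had the smallest p among the higher members, and each was highest in s571. Without that library they differed by 0.62, 0.54, 0.45 and 0.43, and Pdhb by 0.88. Hexokinase Hk1 was lower without overlap, at 55.1, 53.2, 53.2, 44.1 and 38.5 CPM with vehicle and 38.1, 32.1, 35.2 and 28.8 CPM with CP2 (-0.54 ± 0.14 log2, edgeR adjusted p = 0.166). The other member lower at that limit, Aldoc, was chosen after its values were seen: it was 214 CPM in s540, the library with nervous system transcripts, and 0.276 to 1.77 CPM in the other 8. Regulators of mitochondrial number had small differences: of 20 biogenesis and AMPK genes 14 were higher, with a median of 0.10. Esrra, a nuclear receptor of oxidative genes, was higher by 0.76 ± 0.22, and Ppargc1a, the coactivator PGC-1 alpha, differed by 0.13 ± 0.34. Without s571 the change of Esrra was 0.47.

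**Figure D4:**
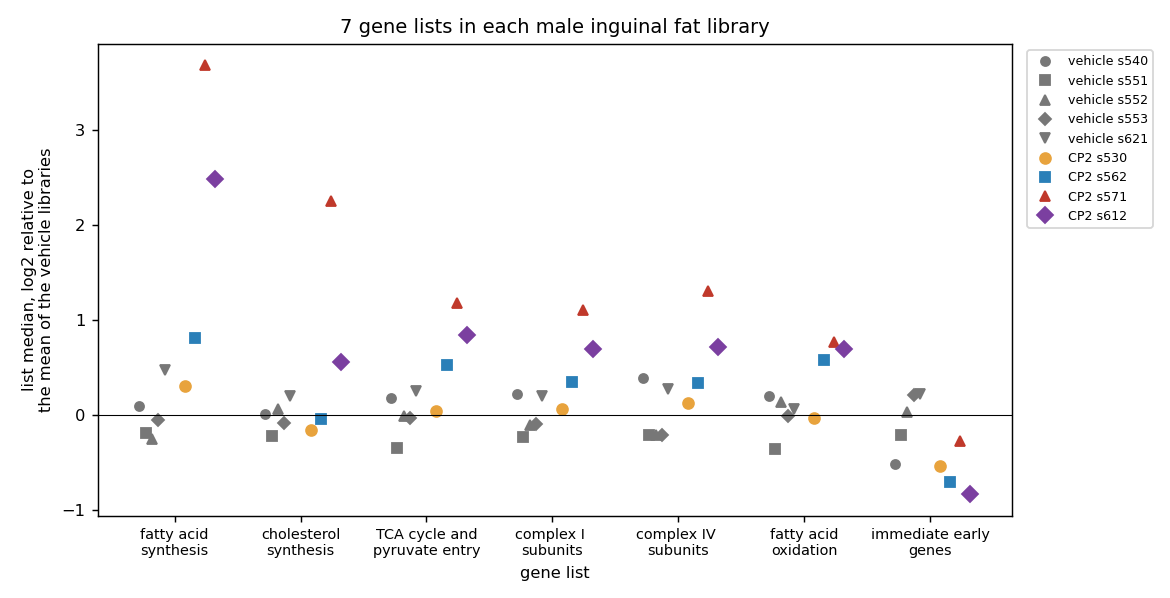
Median log2 level of 7 gene lists (x axis) in each male library relative to the mean of the vehicle libraries (y axis). CP2 library s530 lies inside the vehicle range for complex I (0.06) and for fatty acid synthesis, and s571 is the highest in the 6 metabolic lists. All 4 CP2 libraries lie below 0 for immediate early genes, but s571 lies inside the vehicle range there.

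Fatty acid oxidation had 19 of 20 genes higher, 9 with an unadjusted p under 0.05 and 1 lower at that limit, with a median of 0.45. Acadvl, the first dehydrogenase of long-chain oxidation, was 349, 226, 248, 285 and 361 CPM with vehicle and 369.6, 481, 531 and 625 CPM with CP2, without overlap (0.77 ± 0.19 log2). Hadha, of the trifunctional protein, differed by 0.76 ± 0.19, the carnitine carrier Slc25a20 by 0.69 ± 0.20, and the peroxisomal enzyme Ehhadh by 1.27 ± 0.36. Cpt1a, the liver-type gate of mitochondrial fatty acid entry, differed by -0.64 ± 0.25 (-0.39 without s552). Cpt1b, the muscle-type gate, was 4.62 to 7.47 CPM with vehicle and 9.72 to 23.5 CPM with CP2. It differed by 1.29 ± 0.79 (edgeR adjusted p = 0.510), and by 0.92 without s571, the library with the highest muscle score. The median of the oxidation list without each library in turn stayed between 0.38 and 0.61. Branched-chain amino acid catabolism had 17 of 17 higher but only 2 with an unadjusted p under 0.05, beside 7.66% of all genes. Its median was 0.37, and 0.23 without s612. Lipolysis had 7 of 12 higher, none with an unadjusted p under 0.05. Its lipases Pnpla2 and Lipe differed by 0.02 ± 0.30 and 0.00 ± 0.31.

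A few genes known from thermogenic adipocytes were higher with CP2, while the defining one was below 1 CPM in every library. Ucp1, the uncoupling protein of brown fat, was at 0 to 0.409 CPM with vehicle and 0.0727 to 0.441 CPM with CP2. Elovl3, an elongase of cold-exposed fat, was 0.600, 0.0231, 0.0224, 0 and 0.108 CPM with vehicle and 5.29, 1.98, 2.59 and 15.9 CPM with CP2, low in all libraries but without overlap (5.44 ± 1.47 log2, edgeR adjusted p = 0.182). Cidea, a lipid droplet protein of brown fat, was 46.7, 18.02, 10.7, 11.9 and 39.5 CPM with vehicle and 136, 116, 155 and 207 CPM with CP2, without overlap (2.6 ± 0.90 log2, adjusted p = 0.219). Kcnk3, a potassium channel of brown adipocytes, was 22.5, 17.8, 22.7, 19.98 and 23.4 CPM with vehicle and 47.1, 35.3, 153 and 70.3 CPM with CP2, also without overlap (1.84 ± 0.38 log2, adjusted p = 0.131). Otop1, a proton channel, was higher by 2.70 ± 0.86, with overlap, and by 1.41 without s571. Lists share members: Elovl3 is also in the fatty acid synthesis list, and Cidea in the triglyceride and gland lists. The whole thermogenic list of 20 had 11 higher, 5 with an unadjusted p under 0.05 and 4 lower at that limit. Its median of 0.08 was 0.60 without s540. The 4 lower members were Ckmt1, a creatine kinase also made by neurons, and, named after their values were seen, Zic1, Cited1 and Gatm. Each of them was highest in s540, where Ckmt1 was 42.98 CPM against at most 0.237 CPM in the other 8 libraries.

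Genes of adipocyte identity lay on both sides of 0. Of 20 markers 9 were higher and 11 lower, with a median of -0.03. Adiponectin, Adipoq, was 2809 to 4012 CPM with vehicle and 2269 to 4431 CPM with CP2 (0.05 ± 0.26 log2). Pparg, the master regulator, differed by 0.17 ± 0.30, Fabp4, the fatty acid carrier, by -0.15 ± 0.33, and Slc2a4, the insulin-responsive glucose transporter, by 0.53 ± 0.40 (0.03 without s571). Leptin, Lep, was 422, 762, 2996, 1352 and 995 CPM with vehicle and 169.9, 796, 851 and 265 CPM with CP2, overlapping (-1.33 ± 0.77 log2, edgeR adjusted p = 0.477). Without s552 the change of Lep was -0.76. Resistin, Retn, was higher by 0.85 ± 0.36. Of 19 insulin signalling genes, Irs2, the insulin receptor substrate, was the 1 free of overlap, beside 1.28% of all genes lower without overlap. It was 42.9, 36.5, 58.05, 65.2 and 25.6 CPM with vehicle and 19.3, 24.6, 7.56 and 22.2 CPM with CP2 (-1.31 ± 0.37 log2, edgeR adjusted p = 0.183). Pik3r1 was higher by 0.85 ± 0.35 with overlap (0.55 without s571).

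Among the lower genes, the imprinted gene Nnat, a membrane proteolipid of adipocytes and neurons, had the smallest p. It measured 797, 1287, 2907, 2531 and 1619 CPM with vehicle and 51.4, 231, 244 and 59.9 CPM with CP2. Every CP2 library was below every vehicle library, with s540 the lowest of the vehicles (-3.64 ± 0.60 log2, edgeR adjusted p = 0.108). Mest, also imprinted and known to vary with fat mass expansion, was 89.7, 282, 1121, 151 and 24.8 CPM with vehicle and 2.83, 2.85, 25.3 and 3.42 CPM with CP2, with treated s571 just above vehicle s621 (-5.28 ± 1.15 log2, adjusted p = 0.131). Sfrp5, a secreted Wnt inhibitor of adipocytes, was 15.9, 46.7, 314, 86.5 and 13.95 CPM with vehicle and 3.60, 9.83, 4.33 and 8.21 CPM with CP2, without overlap (-3.88 ± 0.96 log2). In all 3, vehicle s552 was the highest library of the 9. These are 3 of the 5 adipocyte markers lower at an unadjusted p under 0.05; the others, named after their values were seen, were Npr3 (-1.89 ± 0.79) and Tusc5 (-1.13 ± 0.45).

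Synpo2, an actin-bundling protein, was 165, 149.5, 595, 345 and 87.4 CPM with vehicle and 34.2, 31.5, 21.2 and 16.7 CPM with CP2, without overlap (-3.37 ± 0.61 log2, edgeR adjusted p = 0.116). Etv5, an ETS transcription factor, was 15.5 to 29.05 CPM with vehicle and held 9.46 to 10.1 CPM in all 4 CP2 libraries (-1.06 ± 0.20 log2). The channel genes Cacna1c, of the L-type calcium channel, and Unc79, of the sodium leak channel, differed by -1.01 ± 0.20 and -3.95 ± 0.82, the latter at 8.51 CPM in s540 and 16.8 CPM in s552. Prr5l (-1.07 ± 0.21), Rgs6 (-1.88 ± 0.39), the thiamine transporter Slc19a3 (-1.90 ± 0.40), Plxdc2 (-0.81 ± 0.18) and the junction protein Plekha7 (-1.54 ± 0.34) were also lower. For these genes, Nnat and Mest, the edgeR adjusted p lay between 0.108 and 0.131, and each of them except Mest was free of overlap. The library kit did not record strand, so reads of genes that overlap one another cannot be told apart.

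Immediate early genes, which respond within minutes to stimuli, were lower as a group: 22 of 23 were lower beside 44.9% of all genes. Of these, 9 had an unadjusted p under 0.05, beside 6.69% of all genes, and the list median was -0.67. The median was -0.79 without s540, which had the lowest list level of the vehicle libraries. Cyr61, a matrix signalling protein, was 16.6, 10.6, 52.1, 51.2 and 22.7 CPM with vehicle and 5.36, 5.64, 8.69 and 5.89 CPM with CP2 (-2.26 ± 0.50 log2, edgeR adjusted p = 0.131). It was the 1 member without overlap, beside 1.28% of all genes lower without overlap. Dusp1, a phosphatase that switches off MAP kinases and whose promoter is shown above, was 47.97, 40.6, 104, 103 and 86.8 CPM with vehicle and 32.3, 37.5, 43.02 and 31.04 CPM with CP2 (-1.09 ± 0.30 log2, adjusted p = 0.183). Only s571 among the treated exceeded a vehicle library, s551. Jun differed by -0.78 ± 0.23, Klf6 by -0.66 ± 0.23, Egr1 by -1.36 ± 0.60 (-0.62 without s621) and Fos by -1.20 ± 0.59 (-1.96 without s612). The level relative to vehicle was -0.54, -0.71, -0.28 and -0.84 in the 4 CP2 libraries and -0.52 to 0.22 in the vehicle libraries.

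Genes of the matrix and of contractile cells were lower in part. Of all genes, 6.69% were lower at an unadjusted p under 0.05, and 1.28% were lower without overlap. Of 28 collagen and matrix genes 19 were lower, 4 with an unadjusted p under 0.05, with a median of -0.21 that was -0.74 without s571 and -0.06 without s530. Thbs1, thrombospondin, was 58.6, 109.5, 604, 254 and 96.2 CPM with vehicle and 42.1, 45.7, 8.91 and 15.5 CPM with CP2, without overlap (-3.00 ± 0.76 log2, edgeR adjusted p = 0.166). Ctgf (-1.80 ± 0.48) and Thbs2 (-1.79 ± 0.60) were also free of overlap, and Bgn, biglycan, differed by -0.73 ± 0.22. Of the fibrillar collagens, Col1a1 was 84.99 to 187 CPM with vehicle and 21.5 to 330.4 CPM with CP2 (-0.15 ± 0.60 log2), and Col3a1 373 to 911 and 133 to 2148 CPM (0.13 ± 0.62 log2). Without s571 these were -1.45 and -1.09. Of 14 smooth muscle and pericyte markers 11 were lower, 3 with an unadjusted p under 0.05, with a median of -0.44 that was -0.28 without s552. Synpo2 belongs to that list, as does Acta2, smooth muscle actin, at 43.7, 79.9, 322, 178 and 62.4 CPM with vehicle and 35.8, 41.8, 39.1 and 35.3 CPM with CP2, without overlap (-1.85 ± 0.58 log2, adjusted p = 0.199). Of 14 progenitor and fibroblast markers 12 were lower, 2 with an unadjusted p under 0.05 (median -0.25). Without vehicle s552 the change was -2.21 for Thbs1, -1.26 for Ctgf, -1.41 for Thbs2, -0.51 for Bgn and -1.26 for Acta2.

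**Figure D5:**
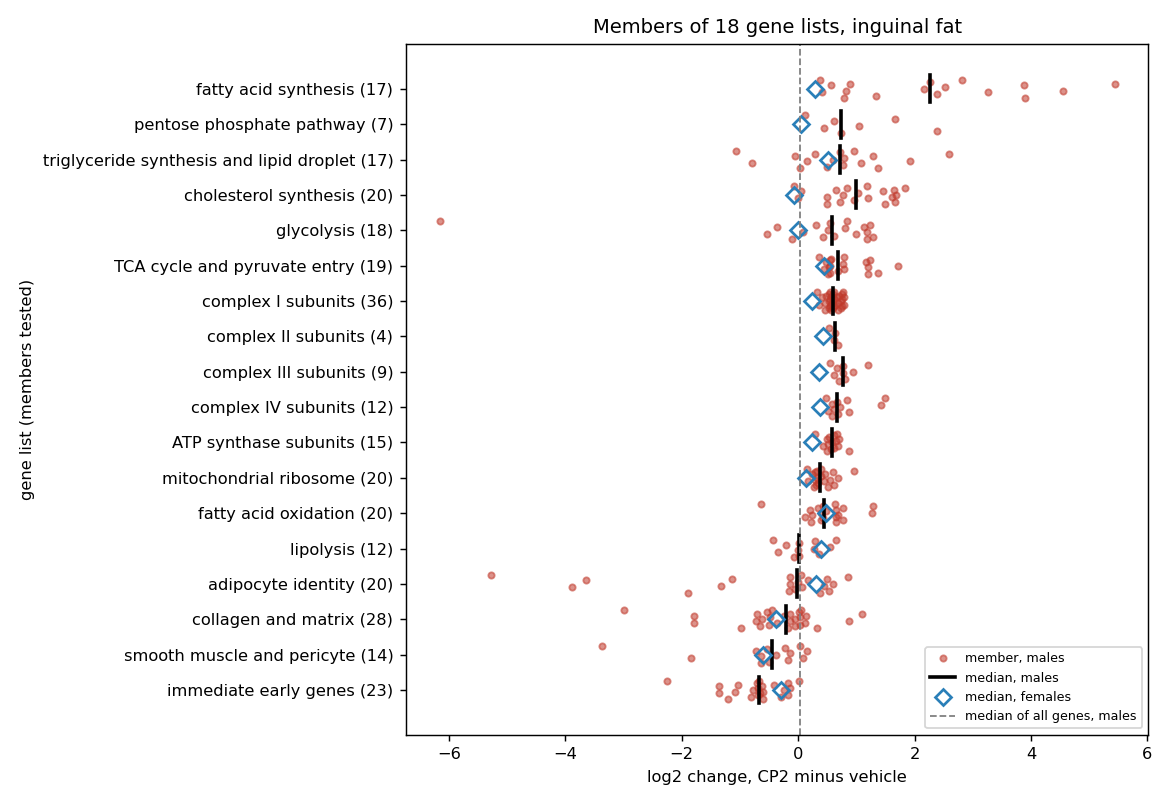
Log2 change (x axis, CP2 minus vehicle) of each tested member of 18 gene lists (y axis) in males, with the male median as a bar, the female median as a diamond and the median of all genes as a dashed line. Fatty acid synthesis has the highest male median, 2.26, the respiratory chain lists are narrow, and immediate early genes have the lowest, -0.67.

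Stress and ageing lists had medians within 0.26 of 0. The integrated and mitochondrial stress response had 12 of 22 higher (median 0.09). Its mitochondrial chaperonins Hspe1 and Hspd1 were higher by 0.60 ± 0.13, without overlap, and 0.54 ± 0.17. The factors Atf4 (-0.15 ± 0.18) and Ddit3 (0.41 ± 0.30) and the secreted signals Gdf15 (-0.79 ± 0.43) and Fgf21 (-0.65 ± 0.87) overlapped between the groups, Ddit3 being -0.23 without s571, and the latter pair was at or under 1.12 CPM in every male library. Endoplasmic reticulum stress had 14 of 16 higher with a median of 0.21, heat shock a median of 0.03, and the hypoxia response -0.01. Oxidative stress defence had 16 of 21 higher, 7 with an unadjusted p under 0.05 (median 0.26), among them the peroxiredoxins Prdx3 (0.64 ± 0.16) and Prdx1 (0.52 ± 0.18) and thioredoxin, Txn1 (0.30 ± 0.11, and 0.19 without s571). Senescence and secreted factors had 11 of 21 higher (median 0.00): Cdkn1a differed by -0.01 ± 0.38, Cdkn2a by 0.42 ± 1.09, Il6 by 0.63 ± 0.58 and Ccl2 by 0.28 ± 0.50. The interferon response had a median of 0.08, lysosome and autophagy 0.11, and the circadian clock -0.12.

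Several marker lists of other cell types had medians near 0 or medians that turned on 1 library. Macrophage markers had 7 of 15 higher (median -0.03), lipid-associated macrophage markers 0.15, and endothelial markers -0.03. The T and NK cell list had a median of 0.36 that turned to -2.54 without s530, and the cell cycle list 0.16 and -0.95. Skeletal muscle had a median of 0.12, and -2.24 without s571. Schwann and nerve markers had a median of -1.60 with all libraries and -0.48 without s540.

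The female inguinal fat, 3 CP2 and 4 vehicle libraries of the same age and strain, had a median of -0.05 over all genes. Tested as the female minus male difference of the CP2 effect, 0 genes passed by edgeR (0%) and 0 by limma-voom, while 375 (1.9%) had an unadjusted p under 0.05 with the female effect lower and 394 (1.99%) with it higher. DESeq2 called 3, of which the last 2 are named after their values were seen: Nnat (3.53) and Duox2 (3.46), with the female effect higher, and an immunoglobulin kappa segment (ENSMUSG00000076518), with it lower (-9.52). Of the 17 fatty acid synthesis genes, 10 had an unadjusted p under 0.05 with the female effect lower and 0 with it higher. The female median of that list was 0.30, with Fasn at 0.93 ± 0.82, Elovl6 at 0.90 ± 0.83 and Acly at -0.30 ± 0.92. The unadjusted p of the sex difference was 0.00557 for Acly and 0.00723 for Elovl6, while the change of Acacb was 1.33 ± 0.33 in males and 1.32 ± 0.37 in females. These values include the male CP2 library s571. Without s571 the male median of the fatty acid synthesis list was 1.47 rather than 2.26. The male change was then 2.29 rather than 3.90 for Acly and 2.96 rather than 4.55 for Elovl6. Complex I subunits had a female median of 0.23 with 34 of 36 higher, and 0 of the 36 had an unadjusted p under 0.05 for the difference between sexes. Msrb1 differed by 0.10 ± 0.13 in females (unadjusted p of the sex difference 5.09e-04) and Pdk1 by 0.18 ± 0.14 (0.00221), with edgeR adjusted p of the sex difference of 1.0 and 1.0. Nnat was -0.12 ± 0.60 in females (unadjusted p of the difference 6.77e-04, edgeR adjusted p = 1.0). For fatty acid oxidation, where the female median was 0.47, 0 of 20 genes had an unadjusted p under 0.05 for the difference.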

How the data were processed

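Inguinal fat of old mice was profiled by mRNA sequencing from 200 ng of total RNA with an unstranded TruSeq kit and 101-base paired reads, per the labels' protocols. The deposited table holds counts per gene (43346 genes) made by the authors with STAR 2.6.1c and Subread featureCounts on mm10, after bcl2fastq, per the submitters' processing notes, and FPKM values, which the authors derived from those counts; annotation release and strand setting: not given in the sources used here. Only the deposited counts were tested, and the FPKM columns served to check them.

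edgeR 4.0.16 (R 4.3.3; TMM scaling, filterByExpr, robust quasi-likelihood) was fitted to all 16 fat libraries in 4 groups by sex and treatment, so that the groups share 1 estimate of spread (12 residual degrees of freedom). The contrasts were CP2 minus vehicle in males and the female minus male difference, with Benjamini-Hochberg adjustment at 0.05. SEs are the log2 change divided by the square root of F. DESeq2 1.42.0, limma 3.58.1 (voom), other scalings, filters and factors, and each library left out in turn were alternatives. The script was tested on simulated data. Depth was 35978524 to 56427108 counts per library.

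Genes were named by rule: those past the threshold, filled to 12 in each direction by the smallest p at a mean of at least 1 CPM, up to 4 per list in the direction of its median and 1 the other way, and a fixed panel; 1 gene that the rule names is not reported here. Of 839 listed symbols in 54 lists, 834 were found. The members and lists were chosen with earlier results of these data known.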

Additional observations from a re-analysis of the deposited data

Results flagged for a closer look

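In 20 of 384 groups of 4 or 5 libraries checked, 1 library lay apart from the rest of its group. For groups chosen beforehand, chance alone gives about 1 in 20. The nervous system lists and genes such as Aldoc and Zic1 were chosen after their values were seen. The count therefore cannot be set against that rate. Of these, 11 concern list scores, the mean log2 CPM of a list, and 9 concern single genes.

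Vehicle s540 stood apart for oligodendrocyte markers at 6.55 (0.53 to 1.54 in the other vehicle libraries), neuron and astrocyte markers at 6.43 (-0.04 to 1.25), the thermogenic list at 3.41 (1.24 to 1.78), brown adipocyte markers at 3.05 (0.62 to 1.25), preputial and sebaceous gland markers at 2.99 (1.27 to 1.51) and glycolysis at 7.12 (6.53 to 6.61). Its single genes, in log2 CPM, were Aldoc at 7.74 (-0.57 to 0.86), Ckmt1 at 5.43 (-3.18 to -1.82), Zic1 at 4.35 (-3.15 to -2.71), Ndufa1 at 6.41 (5.63 to 5.84) and Metap1 at 5.78 (5.43 to 5.48). For Ndufa1 and Metap1 the vehicle library that stood apart was the one nearest to the CP2 libraries.

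CP2 s530 stood apart for T and NK cell markers at 5.74 (1.23 to 1.64 in the other CP2 libraries), lymph node stroma at 5.75 (1.23 to 1.56), adipokines and secreted fat factors at 4.71 (5.95 to 6.06) and Pparg at 7.48 (8.80 to 8.88). Vehicle s551 was low for lipolysis at 7.52 (7.96 to 8.05) and Col3a1 at 8.54 (9.55 to 9.83). Among single values, CP2 s571 was high for Mest at 4.66 (1.52 to 1.79), CP2 s562 low for the testis, epididymis and germ cell list at -1.01 (-0.41 to -0.34), and vehicle s621 high for Acly at 8.46 (7.24 to 7.53), the vehicle library that also overlapped the CP2 group for Fasn.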

How the results depend on the processing

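Named genes kept the direction of their change and their side of the threshold in 129 of 132 under the male libraries alone, 138 of 138 under DESeq2's size factors in edgeR, and 66 of 138 under DESeq2, where the other 72 passed. The 2 genes called became 0 when no low-count filter was used, 1 with a filter at 1 CPM, 0 in the 9 male libraries alone, 0 with the L number as a factor in all 16 libraries or in the males, 0 with limma-voom, 9 with T cell and muscle scores as covariates and 481 with DESeq2, which called 3 genes for the female minus male difference where edgeR called 0. As alternatives added after seeing the data, leaving out s551 and s530 together gave 1 and leaving out s540 from the males alone gave 0. With each library left out in turn the calls ranged from 0 to 225 (without CP2 s530), and the genes without overlap from 564 to 2104 around 598. Smaller groups separate more easily, and leaving out a male library gave 653 such genes or more. Genes at an unadjusted p under 0.05 numbered 1579 rather than 2837 with the L number as a factor in males alone. Of the 2837, 1514 were higher and 1323 lower, against 1400 and 1367 with DESeq2's size factors, 1228 and 733 with limma-voom, 915 and 1307 without s571, and 2184 and 1402 without s530.

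With each library left out in turn, the log2 change took both signs for Scd1 (-0.44 to 0.60), Cox7a1 (-0.30 to 1.75), Cdkn2a (-0.63 to 1.64), Ddit3 (-0.23 to 0.59), Col3a1 (-1.09 to 0.48) and Zic1 (-5.41 to 1.09, the positive value without s540). Over the same libraries Adipoq ran from -0.078 to 0.22, Fabp4 from -0.34 to 0.016, Ppargc1a from -0.022 to 0.52, Pnpla2 from -0.20 to 0.14, Lipe from -0.18 to 0.18, Cdkn1a from -0.14 to 0.18 and Col1a1 from -1.45 to 0.20. Pnpla2 was -0.024 with the 1 CPM filter, -0.0093 in males alone, -0.092 and -0.11 with the L number as a factor in 16 and 9 libraries, and -0.026 with the covariates and with limma-voom. With the L number as a factor Adipoq was -0.0089 in males alone and Col3a1 was -0.25 and -0.23. Col3a1 was -0.25 with the covariates and -0.45 with limma-voom. Cdkn1a was 0.019 with the covariates, 0.064 with limma-voom and 0.16 in males alone without s540. Lipe was 0.0031 without a filter. Without s551 and s530, Ppargc1a was -0.052, Lipe 0.11 and Col1a1 0.078. The cause was not tested for any of these. No paired analysis was possible because the male CP2 and vehicle fat libraries share no sample number.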
